A study of Homo sapiens with 15 samples.

Results

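Integrins are the cell surface receptors that fasten cells to the matrix around them, and this account follows 10 of their subunit genes, ITGA2, ITGA3, ITGA5, ITGA6, ITGAV, ITGB1, ITGB4, ITGB5, ITGB6, and ITGB8, through 5 conditions of a squamous cell carcinoma line. The genes were picked by symbol as the integrin subunits of keratinocytes, with no measured value in the rule but with earlier results of these data known. They are 10 of the 60649 genes listed in each count table. The cells were HSC-5, which came from a squamous cell carcinoma of human skin, and RNA was sequenced from 15 libraries in 5 conditions of 3 libraries each. The question behind the design was what PRMT5 and its partner WDR77 do together in squamous cell carcinoma. The sgNeg libraries have the genotype label WT and carry the control that related experiments call an empty vector, sgPRMT5-1 and sgPRMT5-2 carry 1 of 2 sgRNAs against PRMT5 (label PRMT5 Knockout), and sgWDR77-1 and sgWDR77-2 carry 1 of 2 sgRNAs against WDR77 (label WDR77 Knockout). All 15 libraries, sgNeg included, have the treatment label Neomycin. The cells are nowhere described as clones, the labels and methods call the replicates biological, and a general line of the methods speaks of independent experiments without naming the RNA libraries, so p-values measure the spread between these samples.

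Each integrin is a pair of an alpha and a beta chain, and the pairing decides what the receptor holds. The chain encoded by ITGB1 joins those of ITGA2 (collagen), ITGA3 (laminins), ITGA5 (fibronectin), ITGA6, and ITGAV, whereas the ITGB4 chain joins only that of ITGA6 in the hemidesmosome, which ties keratinocytes to laminin in the basement membrane and to keratin filaments inside the cell. The ITGAV chain also joins those of ITGB5, ITGB6, and ITGB8; the ITGB5 receptor binds vitronectin, and the ITGB6 and ITGB8 receptors are known for activating latent TGF-beta. PRMT5 is an arginine methyltransferase that works in a complex with WDR77.

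Between 5146711 and 6730428 reads per library fell on genes, and the median library had 5806938 (sgNeg), 5974844 (sgPRMT5-1), 6124306 (sgPRMT5-2), 5203698 (sgWDR77-1), and 5527881 (sgWDR77-2). The sgWDR77-1 libraries were the least alike of any condition: the chi-square per degree of freedom between replicates was 12.5 and 17.7 for the pairs with replicate 1 and 3.21 for the other pair, so integrin genes whose call in a comparison of conditions changes without replicate 1 are also given without it. Levels are given as CPM, read counts relative to the total of each library, scaled between libraries with the trimmed mean of M values. The 10 integrin genes were well covered, at 193 to 5411 reads in any library, and each passed the filter for testing, a mean normalized count of at least 3, as did 14056 genes in all. A set of 8 squamous cell markers summed to 2380 to 3386 CPM per library, with KRT17 the most abundant at a mean of 928 CPM, while KRT14 had at most 4 reads in any library. The summed level of 5 immune markers was 0 to 0.555 CPM, with CD68 the most abundant and CD3E at 0 in every library, and that of 5 fibroblast markers was 0 to 1.09 CPM, with COL3A1 the most abundant and COL1A2 at 0 throughout. Of 4 melanocyte markers, PMEL was the most abundant, TYR and DCT were at 0, and the sum was 2.55 to 7.48 CPM. Of 4 endothelial markers, KDR was at 0 in every library and CDH5 was the most abundant, and their sum was 31.3 to 36.1 CPM in sgWDR77-1 against 12.7 to 24.9 CPM in the other 12 libraries; its part in the sgWDR77-1 results was not tested. The squamous label therefore had its markers, apart from KRT14. Several of these markers differed from sgNeg: KRT5, KRT6A, and DSG3 were called lower with each of the 4 sgRNAs, SFN higher with all but sgWDR77-1, and KRT17 higher with sgWDR77-2. With library totals alone, KRT17 passed as lower with sgPRMT5-2 (-0.25 on the log2 scale, limma voom adjusted p = 0.0448). The DSG3 call with sgPRMT5-1 was lost, at the limma voom adjusted p in brackets, without sgNeg replicate 2 (0.0942) or sgNeg replicate 3 (0.0709). It was also lost without sgPRMT5-1 replicate 2 (0.145) or sgPRMT5-1 replicate 3 (0.0861). The same held with no filter on low counts (0.0503), a replicate block (0.0510) or a covariate for reads outside genes (0.0763). For SFN the values in other settings were not recorded. Of the endothelial and melanocyte markers, VWF at -2.28 (limma voom with Benjamini-Hochberg adjusted p = 0.00389) and PMEL at -1.41 (limma voom with Benjamini-Hochberg adjusted p = 0.0162) fell with sgPRMT5-2, and CDH5 rose with sgWDR77-1 by 0.80 (limma voom with Benjamini-Hochberg adjusted p = 0.00325). The PMEL call was lost without sgNeg replicate 1 (0.0531) or sgPRMT5-2 replicate 2 (0.122). Without the latter library the PMEL value was -0.86 on the log2 scale. KRT5 was at 512 to 817 CPM in sgNeg, 227 to 335 with sgPRMT5-1, 52.2 to 61.3 with sgPRMT5-2, 33.8 to 43.4 with sgWDR77-1, and 81.9 to 101 with sgWDR77-2. What part these marker changes have in the integrin results was not tested. In bulk RNA, fewer cells that express a gene and less of its RNA per cell cannot be told apart.

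The targeted genes were lower in the libraries labelled for them. PRMT5 (ENSG00000100462.16, chr14:22920525-22929408, minus strand) was at 59.1, 49.6, and 67.8 CPM in sgNeg, at 33.0, 35.8, and 41.4 CPM in sgPRMT5-1, and at 44.1, 44.5, and 39.4 CPM in sgPRMT5-2. All 6 libraries with a PRMT5 sgRNA lay below the lowest sgNeg library, and the RNA was reduced and not absent, with log2 fold changes of -0.67 (standard error 0.132, limma voom with Benjamini-Hochberg adjusted p = 0.0057) and -0.45 (standard error 0.13, limma voom with Benjamini-Hochberg adjusted p = 0.0114). In sgWDR77-1 and sgWDR77-2 PRMT5 was at 54.5, 64.2, and 54.4 CPM and at 79.9, 65.2, and 64.4 CPM, neither past the threshold against sgNeg (limma voom with Benjamini-Hochberg adjusted p = 0.954 and 0.265). WDR77 (ENSG00000116455.14, chr1:111439890-111449256, minus strand) was at 125, 114, and 119 CPM in sgNeg, 30.8, 52.0, and 53.3 CPM in sgWDR77-1, and 26.6, 24.9, and 22.0 CPM in sgWDR77-2. The WDR77 groups did not overlap, and the log2 fold changes against sgNeg were -1.43 (standard error 0.148, limma voom with Benjamini-Hochberg adjusted p = 2.02e-06) and -2.29 (standard error 0.165, limma voom with Benjamini-Hochberg adjusted p = 6.92e-09). In sgPRMT5-1 and sgPRMT5-2 WDR77 was at 134, 119, and 156 CPM and at 126, 129.9, and 119 CPM, again not past the threshold (limma voom with Benjamini-Hochberg adjusted p = 0.501 and 0.726). The abundance of an edited transcript does not measure the protein.

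Before any condition is compared, the subunits differ in level among themselves. Per kilobase of merged exons, the levels in sgNeg were 63.3 ± 2.44 CPM per kb for ITGA3 and 62.8 ± 6.27 for ITGB4 (SD, n = 3), which overlapped with each other, followed by 40.2 ± 3.18 for ITGB1 and 36.3 ± 2.02 for ITGA6, which also overlapped. Below them on the same scale came the levels of ITGA2 at 20.6 ± 1.83, ITGB5 at 14.4 ± 2.36, ITGA5 at 13.0 ± 0.920, ITGB6 at 11.02 ± 1.11, ITGAV at 9.52 ± 0.830, and ITGB8 at 4.43 ± 0.620 CPM per kb. The ranges of ITGB5, ITGA5, and ITGB6 overlapped between neighbours, and ITGB8 was the lowest in every condition. With each of the 4 sgRNAs the mean level of ITGB4 per kb was above that of ITGA3, without overlap in sgPRMT5-2 (74.5 ± 1.44 against 70.9 ± 1.76 CPM per kb) and sgWDR77-2 (74.6 ± 3.95 against 61.9 ± 1.73) and with overlap in sgPRMT5-1 and sgWDR77-1. In sgPRMT5-2 the level of ITGA2 at 37.5 ± 1.59 overlapped with ITGA6 at 35.7 ± 1.73. The level of ITGA5 per kb was above that of ITGB5 in sgPRMT5-2 (31.6 ± 1.23 against 23.3 ± 0.696), and also in sgPRMT5-1, in both without overlap. ITGAV likewise had a higher level per kb than ITGB6 in sgPRMT5-2 (10.01 ± 0.597 against 7.55 ± 0.337), and also in sgPRMT5-1 (11.4 ± 1.37 against 10.3 ± 1.31) and sgWDR77-2 (10.995 ± 1.18 against 9.22 ± 2.997), where their ranges overlapped. In sgWDR77-1 ITGA5 was instead next to the lowest on this scale, at 12.9 ± 1.32 CPM per kb, its range overlapping with that of ITGAV. Lengths depend on the gene model. Divided by the longest transcript instead of all merged exons, ITGAV in sgNeg was at 23.1 CPM per kb, next below ITGA6, and ITGB1 at 104 was above ITGB4 at 72.0, whereas ITGB8 stayed lowest. On that scale ITGA3 was above ITGB4 in every condition, without overlap (126.9 against 85.4 in sgPRMT5-2). ITGAV was above ITGB6 in every condition, sgNeg included (23.1 against 13.7). ITGB6, not ITGA5, was next to the lowest in sgWDR77-1. These orders therefore depend on the length used.

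**Figure D1:**
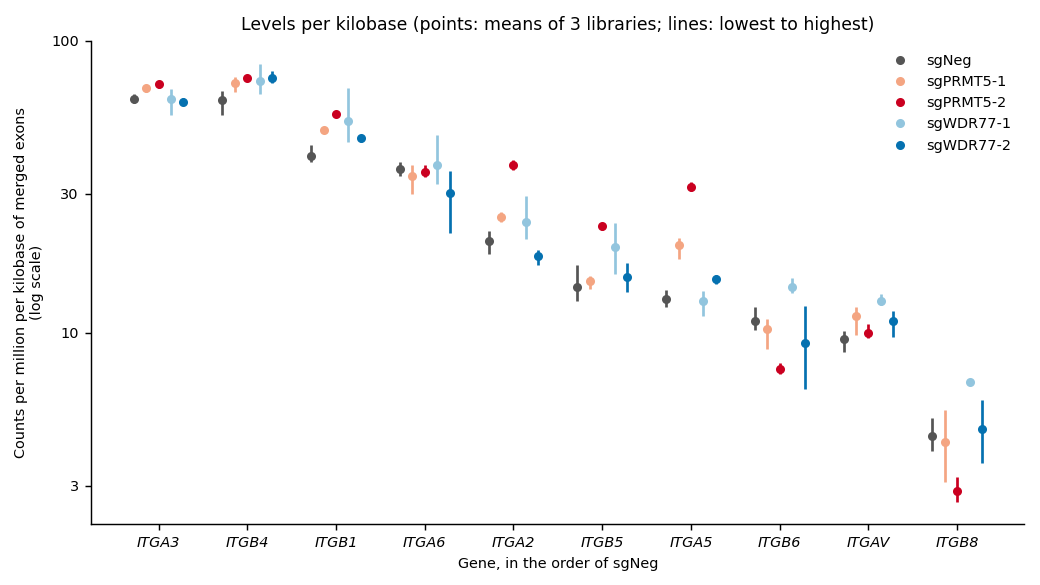
Level of each integrin gene in the 5 conditions, in CPM per kilobase of merged exons on a log axis, with points for the means of 3 libraries and lines from the lowest to the highest library. ITGA2 and ITGA5 stand highest in sgPRMT5-2, and ITGB8 is the lowest gene in each condition.

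The other 16 integrin subunit genes, most of them known from leukocytes, platelets, or connective tissue, were low or silent in these cells. ITGA8 and ITGA9 had 0 reads in every library, 8 of the 16 stayed under 10 reads in each library, and 8 passed the filter for testing. ITGB2 was the most abundant at a mean of 14.2 CPM, against means of 60.7 to 714 CPM for the 10 keratinocyte subunits.

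Across the 5 conditions, 7 of the 10 integrin genes differed in a single F test of all group means, at a limma voom adjusted p (Benjamini-Hochberg) of 4.87e-09 for ITGA5, 3.22e-06 for ITGA2, 0.000204 for ITGB8, 0.000665 for ITGB5, 0.00109 for ITGB6, 0.0145 for ITGAV, and 0.0173 for ITGB1. In the same test 35.8% of all 14056 genes were called. The count of 7 was 8 without sgWDR77-1 replicate 1, and 6 without sgNeg replicate 2 or 3 or without any 1 of the sgPRMT5-2 libraries. The share of all genes past the F test was not counted in these fits. ITGB4, ITGA3, and ITGA6 did not pass (limma voom with Benjamini-Hochberg adjusted p = 0.147, 0.159, and 0.315). Of the 7 comparisons, 4 set 1 sgRNA against sgNeg, and they share the same 3 sgNeg libraries, so their values stand side by side and are not independent. With sgPRMT5-1, 1 of 10 members was called, ITGA5, and it was higher; 1.26% of all genes were called higher and 1.61% lower (177 and 227 genes, or 98 and 263 with library totals as the only scaling). With sgPRMT5-2, 5 members were higher (ITGA2, ITGA5, ITGB1, ITGB4, and ITGB5) and 2 lower (ITGB6 and ITGB8), where 16.3% of all genes were called higher and 14.7% lower (2296 and 2065 genes, against 2863 and 1686 with upper quartile scaling and 1644 and 2694 with library totals). With sgWDR77-1, 4 members were called, each higher (ITGAV, ITGB1, ITGB5, and ITGB8), beside 3.58% of all genes called higher and 5.9% lower (503 and 830 genes, or 635 and 587 with upper quartile scaling). Reads outside genes were 6.04% and 5.70% of those listed in sgWDR77-1 replicates 2 and 3, and 7.16% in sgNeg replicate 2. In the other libraries they were 2.75 to 4.26%. With this share as a covariate the sgWDR77-1 count was again 4. With sgWDR77-2, limma voom called 0 of the 10, where 1.81% of all genes were called higher and 2.98% lower. There 2 members, ITGA5 and ITGB4, had an unadjusted p under 0.05. The share of all genes at that unadjusted threshold was not counted, so these 2 have no background beside them. The median log2 fold change of the 10 genes was 0.16, 0.21, 0.30, and 0.09 in these 4 comparisons, against 0.02, 0.01, -0.01, and 0.02 over all genes tested.

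The other 3 comparisons do not use sgNeg. Between the PRMT5 sgRNAs, 3 members were called, each higher in sgPRMT5-2 than in sgPRMT5-1 (ITGA2, ITGA5, and ITGB5); of all genes, 3.56% were called higher and 3.98% lower (500 and 560 genes, or 624 and 431 with upper quartile scaling). Between the WDR77 sgRNAs, 1 member, ITGB6, was lower in sgWDR77-2 than in sgWDR77-1, where 1.84% of all genes were called higher and 0.569% lower (259 and 80 genes, or 132 and 88 with library totals). Between the genes targeted, with the means of both sgRNAs taken for each, 3 members were higher with the PRMT5 sgRNAs (ITGA2, ITGA3, and ITGA5) and 2 lower (ITGB6 and ITGB8), beside 15.7% of all genes called higher and 11.4% lower (2205 and 1608 genes, or 1505 and 2163 with library totals). No direction of a called member turned under any scaling tried.

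The counts depended on single libraries. Without sgNeg replicate 1, the members called with sgPRMT5-2 fell from 7 to 4, since ITGB4 (0.0788), ITGB6 (0.0607), and ITGB8 (0.0585) were no longer past the threshold by their adjusted p; calls over all genes went from 4361 to 3220. Without sgNeg replicate 3 the members called with sgWDR77-1 went from 4 to 0, without sgNeg replicate 2 to 1, and without sgPRMT5-2 replicate 2 or sgWDR77-2 replicate 2 to 2. The calls over all genes with sgWDR77-1 went down as well, from 1333 to 677, 1106, 1159, and 1212 in these 4 fits. When sgWDR77-1 replicate 1 was left out of the fit, 4 were again called with sgWDR77-1, with ITGB4 in the place of ITGB1, 3 with sgPRMT5-1, and 2 with sgWDR77-2 (ITGB1 and ITGB4, limma voom with Benjamini-Hochberg adjusted p = 0.0312 and 0.0459); 1 member, ITGB6, was called with sgWDR77-2 without its replicate 3 (0.0314). The 3 with sgPRMT5-1 were then ITGA5 together with ITGA2 (adjusted p = 0.0433 by limma voom) and ITGB1 (adjusted p = 0.00638 by limma voom). In that fit the calls over all genes also went up, from 404 to 859 with sgPRMT5-1 and from 674 to 1348 with sgWDR77-2, while those with sgWDR77-1 were 1296. With sgPRMT5-1 the calls over all genes were 116 without its replicate 3 and 182 without its replicate 2, so the shares of all genes called, given above for all 15 libraries, also depend on single libraries. Between the PRMT5 sgRNAs the count went from 3 to 5 without sgPRMT5-1 replicate 3, sgWDR77-1 replicate 1, or sgWDR77-2 replicate 1, where the calls over all genes were 1651, 1980, and 1320 against 1060. The count stayed at 3 without sgPRMT5-1 replicate 1 or 2, where the calls over all genes were 338 and 455. The count was also 3 without sgPRMT5-2 replicate 1, 2, or 3 (455, 459, and 470 calls over all genes). Between the WDR77 sgRNAs it went from 1 to 0 without sgWDR77-2 replicate 1 or 2 and to 2 without sgPRMT5-1 replicate 1 or 3, sgWDR77-1 replicate 1 or 3, or sgWDR77-2 replicate 3, and between PRMT5 and WDR77 sgRNAs from 5 to 3 without sgPRMT5-1 replicate 3 or sgWDR77-2 replicate 3. Over all genes, the calls between the WDR77 sgRNAs were 339 with all libraries, 45 and 85 without sgWDR77-2 replicate 1 or 2, 244 and 426 without sgPRMT5-1 replicate 1 or 3, 505 and 408 without sgWDR77-1 replicate 1 or 3, and 313 without sgWDR77-2 replicate 3; those between the targeted genes went from 3813 to 2872 and 2886. The plot of single libraries and the plot of log2 fold changes show these differences and the spread.

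**Figure D2:**
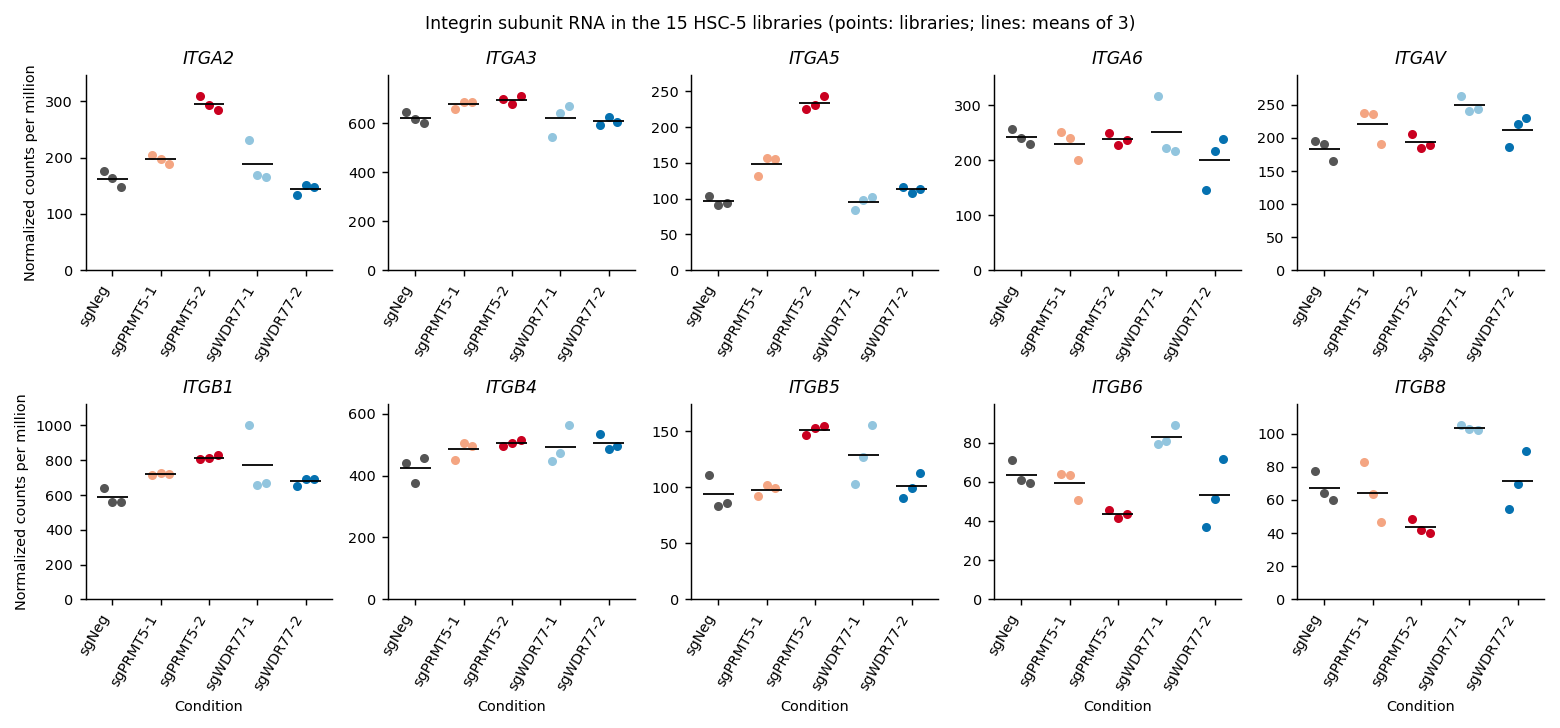
Normalized CPM of the 10 integrin genes in each of the 15 libraries, by condition; points are libraries and lines are means of 3. By group mean, ITGA2, ITGA5, and ITGB5 are highest and ITGB6 and ITGB8 lowest in sgPRMT5-2, and ITGB1 reaches 999.5 CPM in sgWDR77-1 replicate 1 alone.

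**Figure D3:**
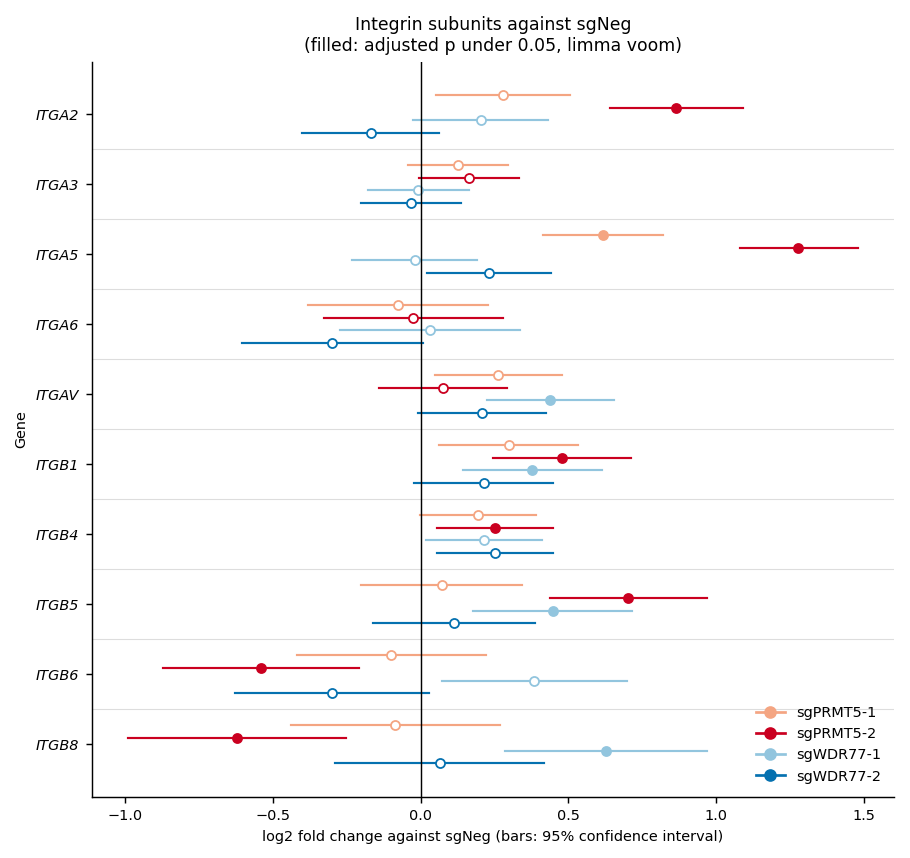
Log2 fold changes of the 10 integrin genes against the shared sgNeg libraries, with 95% confidence intervals; filled points have a limma voom adjusted p under 0.05. ITGA5 in sgPRMT5-2 lies farthest from 0, and ITGB8 lies on opposite sides of 0 in sgPRMT5-2 and sgWDR77-1.

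To show the regulatory sequence beside these changes, the stretch before the start site is printed for the pair that rose most, ITGA5 and ITGA2, and for the pair that fell with sgPRMT5-2, ITGB6 and ITGB8. Windows of 250 bases before the RefSeq start site (GRCh38.p14) were found for 8 of the 10 genes; none was matched for ITGA3 and ITGB4. Each was searched on both strands for GGGCGG, held by 42.6% of all 35116 such windows, for TGANTCA, held by 6.57%, and for TATAAA, held by 10.7%. Where the GENCODE gene model begins inside a window, printing stops before it, so ITGA5 is given in full (chr12:54419267-54419516, minus strand, 250 bases), ITGA2 over 238 bases (chr5:52989102-52989339, plus strand), ITGB6 over 209 bases (chr2:160200314-160200522, minus strand), and ITGB8 over 52 bases (chr7:20330650-20330701, plus strand). Sequences run 5′ to 3′ on the gene's strand, and capitals mark each match to GGGCGG, which reads CCGCCC where the match lies on the other strand.
ITGA5: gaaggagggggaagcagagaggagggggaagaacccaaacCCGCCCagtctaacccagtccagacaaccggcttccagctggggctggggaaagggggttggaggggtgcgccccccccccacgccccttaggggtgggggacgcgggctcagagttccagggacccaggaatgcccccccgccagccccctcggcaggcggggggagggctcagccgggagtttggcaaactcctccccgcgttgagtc
ITGA2: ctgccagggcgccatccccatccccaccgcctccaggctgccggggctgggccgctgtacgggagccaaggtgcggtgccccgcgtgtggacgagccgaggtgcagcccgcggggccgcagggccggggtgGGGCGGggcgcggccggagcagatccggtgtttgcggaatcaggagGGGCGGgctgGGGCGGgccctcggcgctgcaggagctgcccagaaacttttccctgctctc
ITGB6: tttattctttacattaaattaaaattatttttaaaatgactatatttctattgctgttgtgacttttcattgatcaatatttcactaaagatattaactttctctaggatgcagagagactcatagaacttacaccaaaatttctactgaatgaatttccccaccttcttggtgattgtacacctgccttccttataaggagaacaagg
ITGB8: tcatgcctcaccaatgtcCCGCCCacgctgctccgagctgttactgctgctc
The whole ITGA5 window held 1 GGGCGG match, the ITGA2 window 4 (3 of them in the printed stretch), the ITGB8 window 2 (1 of them printed), and the ITGB6 window 0, and none of the 4 held the second or the third motif. The windows differ in base composition, with a GC content of 70%, 76.4%, and 71.2% in ITGA5, ITGA2, and ITGB8 against 30% in ITGB6, where the median of all windows is 58% and 1.52% of them are lower than ITGB6. A match is a description of these letters and not a site shown to be bound.

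The fibronectin receptor subunit ITGA5 had the highest log2 fold change of the 10 genes, and it was the only member called with both PRMT5 sgRNAs. ITGA5 (ENSG00000161638.11, chr12:54395261-54419266, minus strand) was at 104, 90.6, and 94.5 CPM in sgNeg, 132, 156, and 156 CPM in sgPRMT5-1, and 225, 231, and 243 CPM in sgPRMT5-2. The 3 groups formed 3 steps that did not overlap, each sgPRMT5-1 library above each sgNeg library and each sgPRMT5-2 library above both. In the WDR77 conditions the levels were 84.2, 98.3, and 103 CPM in sgWDR77-1, around those of sgNeg, and 116, 109, and 114 CPM in sgWDR77-2, all 3 just above the highest sgNeg library. The log2 fold change against sgNeg was 0.62 in sgPRMT5-1 (standard error 0.0983, limma voom with Benjamini-Hochberg adjusted p = 0.000963) and 1.28 in sgPRMT5-2 (standard error 0.0965, limma voom with Benjamini-Hochberg adjusted p = 3.85e-09). With sgWDR77-1 and sgWDR77-2 it was -0.02 (standard error 0.102, limma voom with Benjamini-Hochberg adjusted p = 0.937) and 0.23 (standard error 0.1, limma voom with Benjamini-Hochberg adjusted p = 0.201), neither past the threshold. The step between the PRMT5 sgRNAs was itself past the threshold, at 0.66 (standard error 0.0935, limma voom with Benjamini-Hochberg adjusted p = 0.000102), and so was the difference between the PRMT5 and the WDR77 sgRNAs, at 0.84 (standard error 0.0689, limma voom with Benjamini-Hochberg adjusted p = 2.36e-08). All of these ITGA5 calls held in each of 24 alternative settings, whether another scaling, filter, or fit was used or any single library was left out. PRMT5 RNA itself did not differ past the threshold between the PRMT5 sgRNAs (log2 fold change 0.22, limma voom with Benjamini-Hochberg adjusted p = 0.33), whereas WDR77 RNA was lower in sgWDR77-2 than in sgWDR77-1, at -0.85 (standard error 0.178, limma voom with Benjamini-Hochberg adjusted p = 0.0157), a call lost without sgWDR77-2 replicate 1 (0.0675) or sgWDR77-2 replicate 2 (0.0621), or with only the libraries compared (0.177).

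The collagen receptor subunit ITGA2 rose with sgPRMT5-2. ITGA2 (ENSG00000164171.11, chr5:52989340-53094779, plus strand) was at 176, 164, and 148 CPM in sgNeg and 204, 197, and 189 CPM in sgPRMT5-1, and at 309, 294, and 284 CPM in sgPRMT5-2. In sgWDR77-1 it was at 232, 170.1, and 165 CPM, with replicate 1 apart from the others, and in sgWDR77-2 at 135, 151, and 148 CPM. The sgPRMT5-2 libraries stood above the other 12, and the sgPRMT5-1 libraries, although all above sgNeg, came closer to it. The log2 fold change was 0.87 in sgPRMT5-2 (standard error 0.108, limma voom with Benjamini-Hochberg adjusted p = 4.11e-06) and 0.28 in sgPRMT5-1 (standard error 0.109, limma voom with Benjamini-Hochberg adjusted p = 0.187). Without sgWDR77-1 replicate 1 the sgPRMT5-1 value passed, with an adjusted p of 0.0433 by limma voom. ITGA2 was higher in sgPRMT5-2 than in sgPRMT5-1 by 0.59 (standard error 0.107, limma voom with Benjamini-Hochberg adjusted p = 0.00143). The mean of the PRMT5 sgRNAs was above that of the WDR77 sgRNAs by 0.55 (standard error 0.077, limma voom with Benjamini-Hochberg adjusted p = 2.25e-05). Against sgNeg, however, sgPRMT5-1 at 0.28 was near sgWDR77-1 at 0.20, while sgPRMT5-2 was at 0.87. Between the WDR77 sgRNAs all 3 sgWDR77-2 libraries lay below sgWDR77-1, at -0.37 on the log2 scale (standard error 0.111, limma voom with Benjamini-Hochberg adjusted p = 0.0738), which passed without sgWDR77-1 replicate 3 (limma voom adjusted p = 0.0339) or with library totals alone (0.0462).

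ITGB1, the common partner of the collagen, laminin, and fibronectin alpha chains, rose less. ITGB1 (ENSG00000150093.20, chr10:32887273-33005792, minus strand) was at 639, 558, and 559.8 CPM in sgNeg, 715, 724, and 719 CPM in sgPRMT5-1, and 805, 811, and 828 CPM in sgPRMT5-2. In sgWDR77-1 it was at 999.5, 658, and 667 CPM and in sgWDR77-2 at 654, 691, and 689 CPM. Every library with an sgRNA against PRMT5 or WDR77 therefore lay above all 3 sgNeg libraries. The log2 fold change passed the threshold in sgPRMT5-2, at 0.48 (standard error 0.113, limma voom with Benjamini-Hochberg adjusted p = 0.00276), and in sgWDR77-1, at 0.38 (standard error 0.113, limma voom with Benjamini-Hochberg adjusted p = 0.0386). The sgWDR77-1 call was kept in 15 of 24 alternative settings (adjusted p 0.0087 to 0.193) and was lost without any 1 of these libraries, with the limma voom adjusted p in brackets: sgNeg replicate 2 (0.103), sgNeg replicate 3 (0.164), sgPRMT5-1 replicate 2 (0.0507), sgPRMT5-2 replicate 2 (0.0577), sgPRMT5-2 replicate 3 (0.0501), sgWDR77-1 replicate 1 (0.0872), or sgWDR77-2 replicate 2 (0.0542). It was also lost with no filter on low counts (0.0550) or only the libraries compared (0.193), and without sgWDR77-1 replicate 1 the fold change itself was 0.19 on the log2 scale. In sgPRMT5-1 and sgWDR77-2 the values were 0.30 (standard error 0.113, limma voom with Benjamini-Hochberg adjusted p = 0.166) and 0.21 (standard error 0.114, limma voom with Benjamini-Hochberg adjusted p = 0.312); without sgWDR77-1 replicate 1 both passed (limma voom adjusted p = 0.00638 and 0.0312). Without that library ITGB1 also differed between the PRMT5 sgRNAs (limma voom adjusted p = 0.0496) and between PRMT5 and WDR77 sgRNAs (0.00638), which with all 15 libraries it did not (0.342 and 0.414). With only the libraries compared, ITGB1 passed with sgPRMT5-1 (limma voom adjusted p = 0.0409) and between the PRMT5 sgRNAs (0.00914).

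The laminin receptor subunit ITGA3, among the most abundant members per kilobase of merged exons, differed by small amounts. ITGA3 (ENSG00000005884.18, chr17:50055968-50090481, plus strand) ranged from 599 to 646 CPM in sgNeg, 657 to 688 in sgPRMT5-1, and 676 to 709 in sgPRMT5-2 to 545 to 670.0 in sgWDR77-1 and 591 to 625 in sgWDR77-2. All 6 libraries with a PRMT5 sgRNA lay above sgNeg, by log2 fold changes whose 95% confidence intervals were -0.04 to 0.30 for sgPRMT5-1 and -0.00446 to 0.33 for sgPRMT5-2, and no comparison with sgNeg passed the threshold with all 15 libraries and the main scaling (limma voom with Benjamini-Hochberg adjusted p = 0.13 for sgPRMT5-2). The sgPRMT5-2 value passed with upper quartile scaling (0.0267) and with only the libraries compared in the fit (0.0413). The difference between PRMT5 and WDR77 sgRNAs was 0.17 (standard error 0.0577, limma voom with Benjamini-Hochberg adjusted p = 0.0372), a call kept in 11 of 24 alternative settings (adjusted p 0.00996 to 0.222). It was lost, at the limma voom adjusted p in brackets, without any 1 of sgPRMT5-1 replicate 1 (0.0821), sgPRMT5-1 replicate 2 (0.102), sgPRMT5-1 replicate 3 (0.0864), sgPRMT5-2 replicate 1 (0.116), sgPRMT5-2 replicate 2 (0.0679), sgPRMT5-2 replicate 3 (0.143), sgWDR77-1 replicate 1 (0.0865), sgWDR77-2 replicate 1 (0.0689), sgWDR77-2 replicate 2 (0.0599), or sgWDR77-2 replicate 3 (0.0769). It was also lost with RLE scaling (0.0726), library totals alone (0.222) or limma-trend (0.0525), and without sgWDR77-1 replicate 1 the difference was 0.10. Set against ITGA2 and ITGA5 per kilobase of merged exons, a description chosen after the values were seen, ITGA3 made up 65.3% ± 0.804 (SD, n = 3) of the summed level of these 3 alpha genes in sgNeg, 60.6% ± 0.305 in sgPRMT5-1, and 50.7% ± 0.540 in sgPRMT5-2. ITGA5 made up 13.5% ± 0.576 of that sum in sgNeg, 17.6% ± 1.23 with sgPRMT5-1, 22.6% ± 0.856 with sgPRMT5-2, 12.9% ± 0.903 with sgWDR77-1, and 16.0% ± 0.915 with sgWDR77-2.

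The hemidesmosome subunits ITGA6 and ITGB4 showed no large change in RNA. ITGA6 (ENSG00000091409.16, chr2:172427354-172506459, plus strand) was at 257, 240.1, and 230.0 CPM in sgNeg, 317, 222, and 217 CPM in sgWDR77-1, and 147, 217, and 239 CPM in sgWDR77-2, and at 199.99 to 251 CPM in sgPRMT5-1 and 227 to 250.4 CPM in sgPRMT5-2. Its highest and lowest values came from single libraries, sgWDR77-1 replicate 1 and sgWDR77-2 replicate 1, and every condition overlapped with sgNeg. No ITGA6 comparison passed in any alternative setting; the 95% confidence intervals of the log2 fold changes against sgNeg were -0.38 to 0.23 for sgPRMT5-1, -0.33 to 0.28 for sgPRMT5-2, -0.27 to 0.34 for sgWDR77-1, and -0.61 to 0.01 for sgWDR77-2. ITGB4 (ENSG00000132470.14, chr17:75721328-75757818, plus strand) was at 442, 376, and 456 CPM in sgNeg and 494, 503, and 513 CPM in sgPRMT5-2, and at 535, 484, and 494 CPM in sgWDR77-2. All 6 of these libraries lay above the highest sgNeg library, which in turn stood apart from sgNeg replicate 2. The log2 fold change was 0.25 in sgPRMT5-2 (standard error 0.0945, limma voom with Benjamini-Hochberg adjusted p = 0.0473) and 0.25 in sgWDR77-2 (standard error 0.0948, limma voom with Benjamini-Hochberg adjusted p = 0.134), so that values of nearly the same size fell on either side of the threshold. The sgPRMT5-2 call was kept in 7 of 24 alternative settings (adjusted p 0.0099 to 0.255), and it ended, at the limma voom adjusted p in brackets, without any 1 of sgNeg replicate 1 (0.0788), sgNeg replicate 2 (0.255), sgNeg replicate 3 (0.0607), sgPRMT5-1 replicate 1 (0.0777), sgPRMT5-1 replicate 2 (0.0708), sgPRMT5-1 replicate 3 (0.0648), sgPRMT5-2 replicate 1 (0.108), sgPRMT5-2 replicate 2 (0.140), sgPRMT5-2 replicate 3 (0.177), sgWDR77-1 replicate 2 (0.0690), sgWDR77-2 replicate 1 (0.0591), sgWDR77-2 replicate 2 (0.0756), or sgWDR77-2 replicate 3 (0.0712). It likewise ended with RLE scaling (0.0660), library totals alone (0.205), limma-trend (0.0576) or a covariate for reads outside genes (0.0538), and without sgNeg replicate 2 the log2 value was 0.16. In sgPRMT5-1 and sgWDR77-1 ITGB4 had log2 fold changes of 0.19 (standard error 0.0946, limma voom with Benjamini-Hochberg adjusted p = 0.294) and 0.22 (standard error 0.0949, limma voom with Benjamini-Hochberg adjusted p = 0.167), of which the latter passed without sgWDR77-1 replicate 1 (0.0338), as did that of sgWDR77-2 (0.0459).

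Around these subunits, LAMB3 and LAMA3, genes of laminin chains in the basement membrane, changed in opposite directions with sgPRMT5-2. All 6 genes of a list of hemidesmosome partners (PLEC, DST, COL17A1, CD151, LAMA3, and LAMB3) passed the F test over the 5 conditions, where 35.8% of all genes did. With sgPRMT5-2, 3 of the 6 rose and 1 fell, with sgPRMT5-1 1 was called and it fell, and with sgWDR77-1 and with sgWDR77-2 1 rose (DST) and 1 fell; of all genes, 16.3% rose and 14.7% fell with sgPRMT5-2, 1.26% and 1.61% with sgPRMT5-1, 3.58% and 5.9% with sgWDR77-1, and 1.81% and 2.98% with sgWDR77-2. LAMB3, a laminin beta chain, was at 325, 269, and 292 CPM in sgNeg against 617, 631, and 643 CPM in sgPRMT5-2. No sgPRMT5-2 library overlapped with sgNeg, and the change on the log2 scale was 1.10 (standard error 0.117, limma voom with Benjamini-Hochberg adjusted p = 6.13e-07). LAMA3, a laminin alpha chain, went the other way, from 71.6, 56.4, and 61.9 CPM in sgNeg to 36.4, 36.7, and 30.8 CPM in sgPRMT5-2, a log2 fold change of -0.86 (standard error 0.133, limma voom with Benjamini-Hochberg adjusted p = 5.06e-05). LAMA3 was also lower in sgWDR77-2, at -0.62 (standard error 0.132, limma voom with Benjamini-Hochberg adjusted p = 0.00639), and in sgPRMT5-1, at -0.57 (standard error 0.129, limma voom with Benjamini-Hochberg adjusted p = 0.0155); the sgPRMT5-1 call was lost without sgNeg replicate 1 (0.0703) or sgPRMT5-1 replicate 3 (0.0907). PLEC, which links ITGB4 to keratin filaments, rose in sgPRMT5-2 by 0.57 (standard error 0.129, limma voom with Benjamini-Hochberg adjusted p = 0.0021). DST, another link to keratin filaments, rose in sgPRMT5-2 by 0.42 (standard error 0.111, limma voom with Benjamini-Hochberg adjusted p = 0.00621), in sgWDR77-1 by 0.54 (standard error 0.111, limma voom with Benjamini-Hochberg adjusted p = 0.0038), and in sgWDR77-2 by 0.44 (standard error 0.112, limma voom with Benjamini-Hochberg adjusted p = 0.0235). The sgPRMT5-2 call of DST was lost without sgNeg replicate 1 (0.0531), its sgWDR77-1 call with only the libraries compared (0.0671), and its sgWDR77-2 call without sgNeg replicate 1 (0.153), sgNeg replicate 3 (0.0796), sgWDR77-2 replicate 1 (0.155) or sgWDR77-2 replicate 2 (0.0954). With sgPRMT5-1, a higher LAMB3 passed without sgWDR77-1 replicate 1 (0.0276), or with only the libraries compared (0.0473) and a higher DST without sgWDR77-1 replicate 1 (0.0460), whereas with sgWDR77-1 a lower LAMB3 (-0.33 on the log2 scale) passed without sgWDR77-1 replicate 3 (0.0464). For COL17A1 and CD151 the values in other settings were not recorded.

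Apart from ITGB1, the beta chains that share ITGAV divided into ITGB5, which rose, and ITGB6 and ITGB8, which fell, with sgPRMT5-2. ITGB5 (ENSG00000082781.12, chr3:124761948-124901418, minus strand), the vitronectin receptor chain, was at 111, 83.5, and 86.3 CPM in sgNeg, 92.1, 102, and 99.7 CPM in sgPRMT5-1, and 146, 153, and 155 CPM in sgPRMT5-2, and at 103, 127, and 155 CPM in sgWDR77-1 and 90.1, 99.6, and 113 CPM in sgWDR77-2. Only the sgPRMT5-2 libraries lay wholly above sgNeg; in sgWDR77-1 the values spread from within the sgNeg range up to the sgPRMT5-2 level. The log2 fold change was 0.70 in sgPRMT5-2 (standard error 0.128, limma voom with Benjamini-Hochberg adjusted p = 0.000285), and ITGB5 was higher there than in sgPRMT5-1 by 0.63 (standard error 0.127, limma voom with Benjamini-Hochberg adjusted p = 0.0035). In sgWDR77-1 it was 0.45 (standard error 0.13, limma voom with Benjamini-Hochberg adjusted p = 0.0329), a call kept in 16 of 24 alternative settings (adjusted p 0.00184 to 0.178) and lost, at the limma voom adjusted p in brackets, without any 1 of sgNeg replicate 2 (0.136), sgNeg replicate 3 (0.178), sgPRMT5-2 replicate 2 (0.0580), sgWDR77-1 replicate 2 (0.0843), sgWDR77-1 replicate 3 (0.137), or sgWDR77-2 replicate 2 (0.0555). This call was lost as well with no filter on low counts (0.0633) or only the libraries compared (0.134). Without sgWDR77-1 replicate 3 the log2 value was 0.30, and over the 24 settings it was 0.30 to 0.60. In sgPRMT5-1 and sgWDR77-2 the log2 fold changes of 0.07 and 0.11 did not pass (limma voom with Benjamini-Hochberg adjusted p = 0.827 and 0.701). Between the WDR77 sgRNAs the ITGB5 value was -0.33 (standard error 0.13, limma voom with Benjamini-Hochberg adjusted p = 0.163), which passed without sgWDR77-1 replicate 1 (0.0223). Over the 24 settings this value was -0.49 to -0.18, at a limma voom adjusted p of 0.0223 to 0.498.

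ITGB8, a chain of the latent TGF-beta receptor, moved in opposite directions with sgPRMT5-2 and sgWDR77-1. ITGB8 (ENSG00000105855.10, chr7:20330702-20415754, plus strand) was at 77.7, 64.1, and 59.7 CPM in sgNeg, 82.8, 63.7, and 46.7 CPM in sgPRMT5-1, and 48.8, 41.6, and 40.1 CPM in sgPRMT5-2. In sgWDR77-1 it was at 105, 103, and 102 CPM, above every other library, and in sgWDR77-2 at 54.3, 69.6, and 89.7 CPM. The sgPRMT5-2 libraries lay below all of sgNeg and sgWDR77-2, whereas the sgPRMT5-1 libraries spread across the sgNeg range and beyond it on both sides. The log2 fold change against sgNeg was -0.62 in sgPRMT5-2 (standard error 0.178, limma voom with Benjamini-Hochberg adjusted p = 0.011) and 0.63 in sgWDR77-1 (standard error 0.165, limma voom with Benjamini-Hochberg adjusted p = 0.0191). The first call was lost without sgNeg replicate 1 (limma voom adjusted p = 0.0585), and the second without sgNeg replicate 2 (0.0592) or replicate 3 (0.116); over 24 alternative settings the adjusted p were 0.000115 to 0.0585 and 0.00926 to 0.116. In sgPRMT5-1 and sgWDR77-2 the values were -0.09 (standard error 0.171, limma voom with Benjamini-Hochberg adjusted p = 0.842) and 0.06 (standard error 0.171, limma voom with Benjamini-Hochberg adjusted p = 0.883). The comparison that does not use sgNeg, between the means of the PRMT5 and the WDR77 sgRNAs, gave -0.70 (standard error 0.122, limma voom with Benjamini-Hochberg adjusted p = 0.000239). This call held in each of 24 alternative settings, but only sgPRMT5-2 and sgWDR77-1 differed from sgNeg past the threshold. Between sgRNAs of 1 gene the differences did not pass, at -0.53 for PRMT5 (standard error 0.178, limma voom with Benjamini-Hochberg adjusted p = 0.0684) and -0.56 for WDR77 (standard error 0.166, limma voom with Benjamini-Hochberg adjusted p = 0.0707). The former passed without sgPRMT5-1 replicate 3 (0.00892), sgWDR77-1 replicate 1 (0.0399), or sgWDR77-2 replicate 1 (0.0445), or with only the libraries compared (0.0128), and the latter without sgPRMT5-1 replicate 1 (0.0496) or 3 (0.0347) or sgWDR77-2 replicate 3 (0.0290). Over the 24 settings the former was -0.73 to -0.34 (limma voom adjusted p 0.00892 to 0.363) and the latter -0.76 to -0.40 (0.029 to 0.353).

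ITGB6, the epithelial partner of ITGAV, varied together with ITGB8 over the 15 libraries (Pearson r = 0.898). ITGB6 (ENSG00000115221.12, chr2:160099667-160200313, minus strand) was at 71.1, 60.8, and 59.3 CPM in sgNeg, 64.3, 63.7, and 50.9 CPM in sgPRMT5-1, and 45.7, 41.8, and 43.5 CPM in sgPRMT5-2. It was at 79.2, 81.1, and 88.9 CPM in sgWDR77-1 and at 37.2, 51.2, and 71.6 CPM in sgWDR77-2. All sgPRMT5-2 libraries lay below sgNeg and all sgWDR77-1 libraries above it, while the sgWDR77-2 libraries reached from below the sgNeg range to above it. With sgPRMT5-2 the log2 fold change was -0.54 (standard error 0.16, limma voom with Benjamini-Hochberg adjusted p = 0.0129), a call lost without sgNeg replicate 1 (0.0607; 0.000135 to 0.0607 over 24 alternative settings). With sgWDR77-1 it was 0.38 (standard error 0.151, limma voom with Benjamini-Hochberg adjusted p = 0.117), with sgPRMT5-1 -0.10 (standard error 0.154, limma voom with Benjamini-Hochberg adjusted p = 0.792), and with sgWDR77-2 -0.30 (standard error 0.158, limma voom with Benjamini-Hochberg adjusted p = 0.309), the last past the threshold without sgWDR77-2 replicate 3 (0.0314). The sgRNAs of WDR77 differed, with sgWDR77-2 lower than sgWDR77-1 by a log2 fold change of -0.68 (standard error 0.156, limma voom with Benjamini-Hochberg adjusted p = 0.0244), lost without sgWDR77-2 replicate 1 (0.174) or replicate 2 (0.0809) or with only the libraries compared (0.201; 0.0034 to 0.201 over the 24). The mean of the PRMT5 sgRNAs was below that of the WDR77 sgRNAs, at -0.36 (standard error 0.112, limma voom with Benjamini-Hochberg adjusted p = 0.0193). This call was lost without sgPRMT5-1 replicate 3 (0.0593) or sgWDR77-2 replicate 3 (0.0769). Over the 24 settings its limma voom adjusted p was 0.000694 to 0.0769. Against sgNeg, however, sgPRMT5-1 at -0.10 was not below sgWDR77-2 at -0.30. Between the PRMT5 sgRNAs the value was -0.44 (standard error 0.16, limma voom with Benjamini-Hochberg adjusted p = 0.0923), which passed without sgPRMT5-1 replicate 3 (0.0485), sgWDR77-2 replicate 1 (0.0380), or sgWDR77-2 replicate 3 (0.0419), or with only the libraries compared (0.00540).

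Their common partner ITGAV was called with sgWDR77-1 and not with sgPRMT5-2. ITGAV (ENSG00000138448.12, chr2:186590010-186680901, plus strand) was at 196, 190.2, and 166 CPM in sgNeg, 237, 236, and 191 CPM in sgPRMT5-1, and 207, 185, and 189 CPM in sgPRMT5-2, against 263, 241, and 244 CPM in sgWDR77-1 and 187, 222, and 229.5 CPM in sgWDR77-2. The sgWDR77-1 libraries lay above all others, and those of the remaining conditions overlapped with sgNeg. For sgWDR77-1 its log2 fold change came to 0.44 (standard error 0.104, limma voom with Benjamini-Hochberg adjusted p = 0.0095), lost without sgNeg replicate 3 (adjusted p = 0.0848; 0.00641 to 0.0848 over 24 alternative settings); in sgPRMT5-2 it was 0.08 with a 95% confidence interval of -0.14 to 0.29. In sgPRMT5-1 and sgWDR77-2 the log2 fold changes were 0.26 (standard error 0.104, limma voom with Benjamini-Hochberg adjusted p = 0.187) and 0.21 (standard error 0.104, limma voom with Benjamini-Hochberg adjusted p = 0.282). The ITGAV difference between PRMT5 and WDR77 sgRNAs was -0.15 (standard error 0.073, limma voom with Benjamini-Hochberg adjusted p = 0.124), past the threshold without sgWDR77-2 replicate 1 (0.0339) or with library totals alone (0.0307). As a description chosen after the values were seen, the beta chains were also set against each other per kilobase of merged exons. ITGB5 made up 48.1% ± 1.52 (SD, n = 3) of the summed level of ITGB5, ITGB6, and ITGB8 in sgNeg, 51.0% ± 5.14 with sgPRMT5-1, 69.1% ± 1.87 with sgPRMT5-2, 47.9% ± 4.24 with sgWDR77-1, and 53.3% ± 4.70 with sgWDR77-2. The sgPRMT5-2 libraries, at 66.9 to 70.2%, stood above the other 12, while in sgWDR77-1, where ITGB5, ITGB6, and ITGB8 were all higher than in sgNeg on average, the shares overlapped with those of sgNeg.

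**Figure D4:**
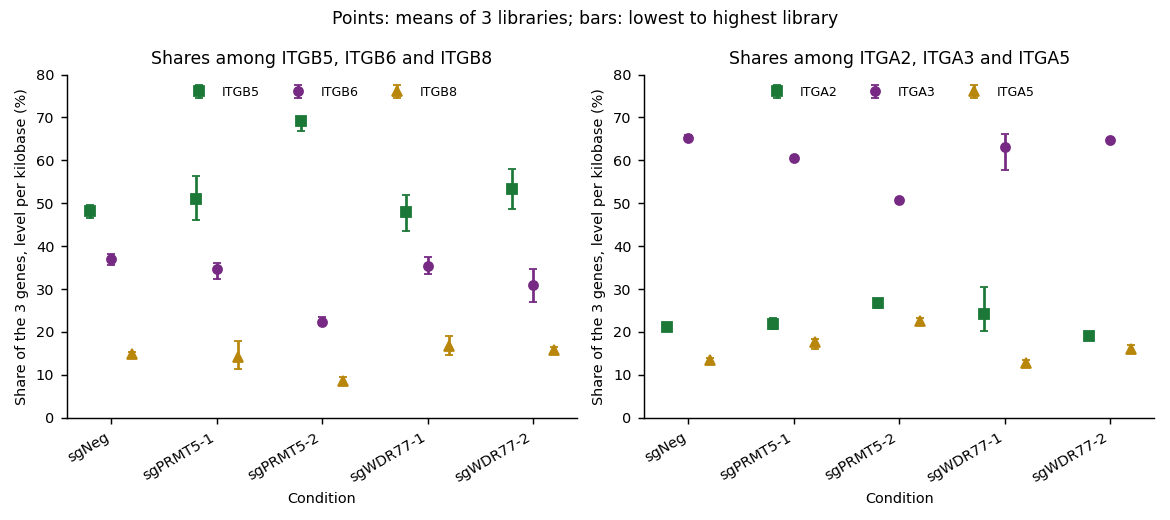
Share of each gene in the summed level per kilobase of ITGB5, ITGB6, and ITGB8 (left) and of ITGA2, ITGA3, and ITGA5 (right) in the 5 conditions, with points for means of 3 libraries and bars from the lowest to the highest. ITGB5 reaches 69.1% and ITGA5 22.6% in sgPRMT5-2, against 48.1% and 13.5% in sgNeg.

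Within a condition, some integrin genes varied together from library to library and others in opposite directions. Over the 15 libraries the Pearson correlation of log2(CPM + 1) was highest between ITGB6 and ITGB8 among the 45 pairs of members, at r = 0.898, and lowest between ITGA5 and ITGB8, at r = -0.774; these libraries fall into 5 conditions, so the values are a description. When each library was expressed as its deviation from the mean of its condition, ITGB6 and ITGB8 still went together (r = 0.849, n = 15), and so did ITGAV with ITGB8 (r = 0.871), ITGA6 with ITGAV (r = 0.820), ITGA2 with ITGB1 (r = 0.903), and ITGA3 with ITGB5 (r = 0.806). Of the 45 pairs, 6 had a correlation of these deviations over 0.8, and others were negative, the lowest of them ITGA3 with ITGB1 (r = -0.686) and ITGA2 with ITGB4 (r = -0.629). Without sgWDR77-1 replicate 1, which was left out here after its values were seen, the deviations of ITGB6 and ITGB8 gave r = 0.858 (n = 14) and those of ITGAV and ITGB8 r = 0.888, but those of ITGA2 and ITGB1 r = 0.631, and those of ITGA3 and ITGB1 turned to r = 0.729. In sgPRMT5-1 replicate 3 and in sgWDR77-2 replicate 1, for example, ITGA6, ITGAV, ITGB6, and ITGB8 were each at the lowest level of their condition. The genes of a pair share each library, its depth, and its quality, and what part these have in the correlation was not tested.

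Among 8955 other genes with a mean of at least 10 CPM, those with the pattern most like each differing member over the 15 libraries were named by a fixed rule, the 3 with the highest Pearson r. For ITGA5 they were CDCP1 (r = 0.985), HAS3 (r = 0.983), and IL1B (r = 0.980); for ITGA2 they were CAB39 (r = 0.974), FBXW11 (r = 0.954), and AKIRIN1 (r = 0.951). The pattern of ITGB1 was most like that of DNM1L (r = 0.946), TPM4 (r = 0.942), and VPS37A (r = 0.924), and that of ITGAV most like CSNK1G3 (r = 0.931), PCNX1 (r = 0.928), and WWP1 (r = 0.924). ITGB5 had lower values, with IRAK2 (r = 0.894), ANGPTL4 (r = 0.890), and ETV5 (r = 0.889). ITGB6 went with PPARA (r = 0.940), GBP2 (r = 0.931), and LEPROT (r = 0.927), and ITGB8 with MGAT4A (r = 0.974), ZBTB33 (r = 0.960), and CPD (r = 0.956). With 8955 genes to choose from, high values are found for many patterns, and nothing about function or control follows from them.

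Of the matrix proteins that these receptors bind, more fell than rose with sgPRMT5-2. A list of 18 ligand genes had 16 tested, 13 of them past the F test over the 5 conditions, where 35.8% of all genes passed. With sgPRMT5-2, 4 rose and 9 fell, beside 16.3% and 14.7% of all genes, and 2 of those that fell, COL1A1 and NPNT, had not passed the F test (limma voom with Benjamini-Hochberg adjusted p = 0.217 and 0.097). With sgPRMT5-1, 2 rose and 2 fell (1.26% and 1.61% of all genes), with sgWDR77-1 5 were called, each of them lower (5.9% of all genes), and with sgWDR77-2 3 rose and 5 fell (1.81% and 2.98% of all genes). FN1, the fibronectin that the ITGA5 receptor binds, and TNC were the 2 that rose with sgPRMT5-1, and with THBS1 and CCN1 the 4 that rose with sgPRMT5-2. The basement membrane collagens COL4A1 and COL4A2, ligands of the ITGA2 receptor, fell most with the WDR77 sgRNAs. COL4A2 was at 167, 165, and 161 CPM in sgNeg against 36.9, 37.0, and 31.2 CPM in sgWDR77-1 and 38.5, 44.3, and 40.5 CPM in sgWDR77-2, with log2 fold changes of -2.23 (standard error 0.123, limma voom with Benjamini-Hochberg adjusted p = 5.75e-11) and -1.995 (standard error 0.12, limma voom with Benjamini-Hochberg adjusted p = 2.1e-10). With sgPRMT5-2 the COL4A2 change was -0.77 (standard error 0.107, limma voom with Benjamini-Hochberg adjusted p = 1.6e-05), and the difference between PRMT5 and WDR77 sgRNAs was 1.51 (standard error 0.0874, limma voom with Benjamini-Hochberg adjusted p = 7.39e-11). For COL4A1 the log2 fold changes were -2.14 with sgWDR77-1 (limma voom with Benjamini-Hochberg adjusted p = 3.07e-08) and -1.41 with sgWDR77-2 (limma voom with Benjamini-Hochberg adjusted p = 3.14e-06). THBS1 and CCN1, secreted proteins that bind integrins, rose with sgPRMT5-2 by 1.07 (limma voom with Benjamini-Hochberg adjusted p = 1.28e-07) and 0.83 (limma voom with Benjamini-Hochberg adjusted p = 9.56e-07), and CCN1 rose with sgWDR77-2 by 0.81 (limma voom with Benjamini-Hochberg adjusted p = 6.64e-06). Other settings changed some of these counts, at the limma voom adjusted p in brackets: the lower COL4A2 with sgPRMT5-1 was lost without sgNeg replicate 1 (0.0716), sgNeg replicate 2 (0.0667), sgPRMT5-1 replicate 2 (0.119) or sgPRMT5-1 replicate 3 (0.153), or with upper quartile scaling (0.0549), limma-trend (0.0508) or a covariate for reads outside genes (0.0745), and the higher THBS1 with sgWDR77-2 without sgNeg replicate 1 (0.0805) or sgWDR77-2 replicate 1 (0.0679). A higher THBS1 passed with sgPRMT5-1 without sgWDR77-1 replicate 1 (0.0314), and a higher CCN1 with sgWDR77-1 without sgWDR77-1 replicate 1 (0.0355), or with upper quartile scaling (0.0360). Of the ligand genes, only COL4A1, COL4A2, THBS1, and CCN1 had their single values recorded in other settings.

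Inside the cell, integrins are tied to actin by adaptor proteins, and among these more rose than fell with sgPRMT5-2. Of 29 activator and adaptor genes 28 were tested and 16 passed the F test, where 35.8% of all genes did; ILK, with at most 4 reads in a library, was not tested. With sgPRMT5-2, 9 of the 28 rose (TLN1, PXN, RSU1, ZYX, BCAR1, SRC, ACTN4, FLNA, and GIT1) and 4 fell (TNS1, TNS3, TNS4, and SHARPIN), beside 16.3% and 14.7% of all genes; SRC and SHARPIN had not passed the F test (limma voom with Benjamini-Hochberg adjusted p = 0.0648 and 0.239). With sgPRMT5-1, 1 rose and 2 fell (1.26% and 1.61% of all genes), with sgWDR77-1 2 rose and 1 fell (3.58% and 5.9%), and with sgWDR77-2 2 rose and 2 fell (1.81% and 2.98%). TNS4 was at 16.1, 11.998, and 15.4 CPM in sgNeg, 7.18, 3.90, and 3.08 CPM in sgPRMT5-1, and 2.64, 4.08, and 4.40 CPM in sgPRMT5-2, and its log2 fold changes were -1.66 (limma voom with Benjamini-Hochberg adjusted p = 0.000963) and -1.97 (limma voom with Benjamini-Hochberg adjusted p = 2.33e-05). With sgPRMT5-2 the values were -0.98 for TNS3 (limma voom with Benjamini-Hochberg adjusted p = 2.69e-06) and -2.79 for TNS1 (limma voom with Benjamini-Hochberg adjusted p = 1.43e-05). PXN, the focal adhesion scaffold paxillin, was higher with the PRMT5 than with the WDR77 sgRNAs by 0.78 (standard error 0.0935, limma voom with Benjamini-Hochberg adjusted p = 3.45e-06) and lower in sgWDR77-1 than in sgNeg, with a log2 fold change of -0.68 (limma voom with Benjamini-Hochberg adjusted p = 0.00277). Of the adaptors, only PXN, TNS1, TNS3, and TNS4 had their single values recorded in other settings. Their calls against sgNeg that were lost, at the limma voom adjusted p in brackets, were PXN with sgPRMT5-2 (0.37 on the log2 scale) without sgNeg replicate 1 (0.190), sgPRMT5-1 replicate 1 (0.0543), sgPRMT5-2 replicate 1 (0.127), sgPRMT5-2 replicate 2 (0.0943) or sgPRMT5-2 replicate 3 (0.0718), or with library totals alone (0.107), TNS1 with sgPRMT5-1 without sgPRMT5-1 replicate 3 (0.0869), TNS3 with sgWDR77-2 without sgWDR77-2 replicate 2 (0.0683), and TNS4 with sgWDR77-2 without sgNeg replicate 1 (0.116), sgNeg replicate 3 (0.0872), sgPRMT5-1 replicate 2 (0.0544), sgPRMT5-2 replicate 3 (0.0511), sgWDR77-2 replicate 1 (0.154) or sgWDR77-2 replicate 2 (0.145), or with no filter on low counts (0.0884), a replicate block (0.0663) or limma-trend (0.0826). Other values, each lower than sgNeg, passed in some settings: TNS3 with sgPRMT5-1 without sgPRMT5-1 replicate 1 (0.0320), sgWDR77-1 replicate 1 (0.0128), sgWDR77-1 replicate 3 (0.0179) or sgWDR77-2 replicate 1 (0.0445), or with RLE scaling (0.0449), library totals alone (0.0390) or only the libraries compared (0.0261) and with sgWDR77-1 without sgWDR77-1 replicate 3 (0.0168), PXN with sgWDR77-2 without sgWDR77-1 replicate 1 (0.0454) or sgWDR77-2 replicate 1 (0.0352), and TNS1 with sgWDR77-2 without sgNeg replicate 3 (0.0311) or sgWDR77-1 replicate 1 (0.0405).

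Of 8 membrane proteins that sit beside integrins, all were tested and 5 passed the F test, where 35.8% of all genes did: with sgPRMT5-2 PLAUR rose by 0.78 (limma voom with Benjamini-Hochberg adjusted p = 0.000583) and CD9 and CD47 fell, with sgWDR77-1 CD81 and SLC3A2 fell, and with sgPRMT5-1 and sgWDR77-2 limma voom called 0, where 2 had an unadjusted p under 0.05 in each. Of all genes, 16.3% rose and 14.7% fell with sgPRMT5-2, and 5.9% fell with sgWDR77-1. The share of all genes at an unadjusted p under 0.05 was not counted. Without sgWDR77-1 replicate 1, SLC3A2 passed as higher, not lower, with sgPRMT5-1 (0.32 on the log2 scale, limma voom adjusted p = 0.0416), and CD81 passed as lower with sgWDR77-2 (0.0452) and sgPRMT5-2 (0.0150). With sgPRMT5-2 and only the libraries compared, SLC3A2 also passed as higher (0.0282) and CD81 as lower (0.0246). The sgWDR77-1 calls of CD81 and SLC3A2 were lost without sgNeg replicate 3 (limma voom adjusted p = 0.0514 and 0.120), that of CD81 also without sgNeg replicate 1 (0.0607), that of SLC3A2 without sgWDR77-1 replicate 1 (0.0819), and both with only the libraries compared (0.147 and 0.158). For CD9 the values in other settings were not recorded.

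**Figure D5:**
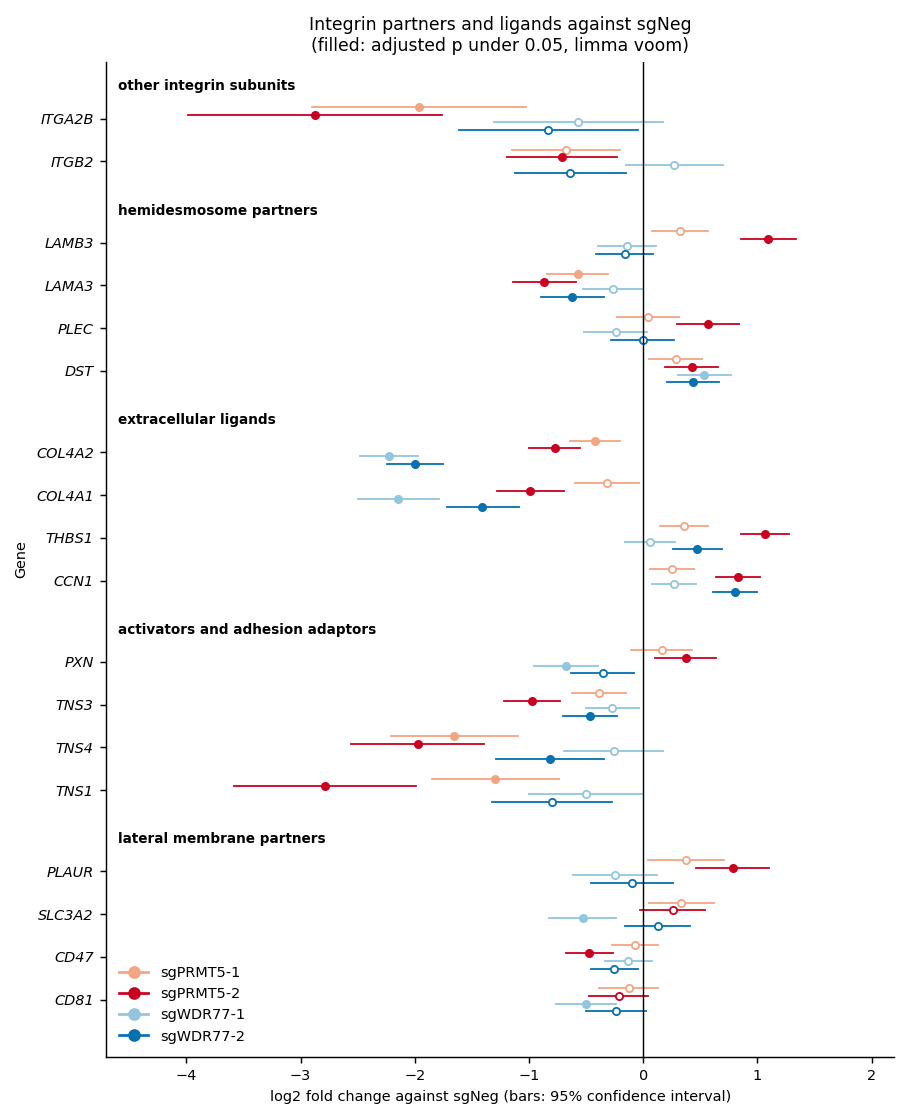
Log2 fold changes against sgNeg of the named genes of 5 lists of integrin partners and ligands, with 95% confidence intervals; filled points have a limma voom adjusted p under 0.05. LAMB3 lies above 0 and LAMA3 below it in sgPRMT5-2, and COL4A1 and COL4A2 lie lowest with the WDR77 sgRNAs.

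In the other integrin subunits, 2 of the 8 tested passed the F test, ITGA2B and ITGB2, the platelet and leukocyte chains, beside 35.8% of all genes. ITGA2B was at 2.71, 2.30, and 2.54 CPM in sgNeg and 0.155, 0.170, and 0.677 CPM in sgPRMT5-2, which is at most 16 reads in any library, and it changed by -2.88 on the log2 scale (standard error 0.539, limma voom with Benjamini-Hochberg adjusted p = 0.000378). ITGB2 fell with sgPRMT5-2 by 0.71 on the log2 scale (limma voom with Benjamini-Hochberg adjusted p = 0.0228), a call lost without sgNeg replicate 1 (0.0860) or sgPRMT5-2 replicate 2 (0.136), or with no filter on low counts (0.0533). In all, 1 of the 8 rose and 2 fell with sgPRMT5-2 (16.3% and 14.7% of all genes), 1 fell with sgPRMT5-1 (1.61%), and 1 rose with sgWDR77-1 (3.58%). With sgWDR77-2 limma voom called 0, where 3 had an unadjusted p under 0.05, a share not counted over all genes. The sgPRMT5-1 call was ITGA2B, lost at the limma voom adjusted p in brackets without sgPRMT5-1 replicate 1 (0.0726), sgPRMT5-1 replicate 2 (0.0867) or sgPRMT5-1 replicate 3 (0.0663). A lower ITGB2 passed with sgPRMT5-1 without sgWDR77-1 replicate 1 (0.0378) or sgWDR77-1 replicate 3 (0.0362), or with only the libraries compared (0.0246), and with sgWDR77-2 without sgWDR77-1 replicate 1 (0.0469) or sgWDR77-1 replicate 3 (0.0456), or with only the libraries compared (0.0468). For the other 6 tested subunits the values in other settings were not recorded.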

How the data were processed

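RNA of HSC-5 cells was sequenced in 15 libraries, 3 in each of 5 conditions, and the deposited tables hold whole-number read counts per gene, which the authors made with STAR and HTSeq on hg38. The sources used give no annotation release or strand setting. The labels name a stranded TruSeq mRNA kit and the methods another TruSeq kit, so counts of genes that overlap on opposite strands are uncertain. The 5 summary entries at the end of each table were left out; of the reads listed per library, 2.75 to 7.16% lay outside genes, 7.09 to 7.93% were ambiguous, and 9.49 to 13.1% were not uniquely aligned. GENCODE release 44 gave positions and lengths and matched 60463 of the 60649 gene IDs without their versions. Between 5146711 and 6730428 reads on genes per library remained, which gave the integrin genes 193 to 5411 reads each.

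Counts were scaled with the trimmed mean of M values (trims of 0.3 for log ratios and 0.05 for mean levels), and genes with a mean normalized count of at least 3 were tested. The plan allowed a negative binomial fit only if a check of the files accepted the tables as counts; the check could not read their format, so the other tool of the plan, limma voom, was used: 1 fit of all 15 libraries with 5 group means (limma 3.58.1, R 4.3.3), 7 comparisons, and an F test over the 5 conditions, with Benjamini-Hochberg adjustment over all tested genes and a threshold of 0.05. The authors used DESeq2. Scripts ran on Python 3.11.15 with pandas 2.3.3, numpy 2.4.6, and matplotlib 3.10.9. The fit was also run on simulated counts with the same spread in every gene and library. The replicates here are unevenly alike, so that run does not test the fit under their spread.

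The members and the gene lists (other integrin subunits, hemidesmosome partners, extracellular ligands, activators and adhesion adaptors, lateral membrane partners, and markers of squamous, immune, fibroblast, endothelial, and melanocyte cells) were chosen with earlier results of these data known. A gene of the hemidesmosome list is not reported here, and the counts of that list are without it. Genes with values from a list are up to 4 with the smallest F-test p among those past the threshold at a mean of at least 1 CPM; others are named only where a count lists them. Alternatives were 3 other scalings, 2 other filters, limma-trend, a covariate, a replicate block, fits of only the libraries compared, a fold minimum, the longest transcript as length, and leaving out each library. Promoter sequences are from RefSeq (GRCh38.p14).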

Additional observations from a re-analysis of the deposited data

Results flagged for a closer look

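The comparisons between sgRNAs of 1 gene test directly whether their effects differ. The comparison between the targeted genes takes the mean of both sgRNAs of each gene, so it can rest on 1 sgRNA and does not compare single sgRNAs. Of the 30 differences tested in these comparisons for the integrin genes, 9 passed the threshold (limma voom, Benjamini-Hochberg over all genes). They were 3 of 10 between the PRMT5 sgRNAs, where 3.56% of all genes were called higher and 3.98% lower, 1 of 10 between the WDR77 sgRNAs (1.84% and 0.569%), and 5 of 10 between the targeted genes (15.7% and 11.4%). ITGA2 was higher in sgPRMT5-2 than in sgPRMT5-1 by a log2 fold change of 0.59. On the mean of both sgRNAs, ITGA2 was higher with the PRMT5 than with the WDR77 sgRNAs by 0.55. Against sgNeg it was at 0.28 in sgPRMT5-1 and 0.20 in sgWDR77-1. ITGA3 differed in the same comparison of targeted genes by 0.17. For ITGA5 the difference between the PRMT5 sgRNAs was 0.66, again higher in sgPRMT5-2. Between the targeted genes ITGA5 differed by 0.84. ITGB5 stood higher in sgPRMT5-2 than in sgPRMT5-1 by 0.63. In sgWDR77-2, ITGB6 was below sgWDR77-1 with a log2 fold change of -0.68. For ITGB6 the mean of the PRMT5 sgRNAs was lower than that of the WDR77 sgRNAs, at -0.36. Against sgNeg, however, sgPRMT5-1 (-0.10) was above sgWDR77-2 (-0.30). The same comparison of means gave -0.70 for ITGB8, with sgPRMT5-1 at -0.09 and sgWDR77-2 at 0.06 against sgNeg. The conditions have 3 libraries each, so single libraries were not tested for standing apart from their group.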

How the results depend on the processing

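The number of integrin genes called (1 with sgPRMT5-1, 7 with sgPRMT5-2, 4 with sgWDR77-1, and 0 with sgWDR77-2 by limma voom (2 at an unadjusted p under 0.05), 3 between the PRMT5 sgRNAs, 1 between the WDR77 sgRNAs, 5 between the targeted genes, and 7 over the 5 conditions) moved by more than 1.5 times in some settings. With library totals alone it was 2 between the WDR77 sgRNAs (220 calls over all genes, against 339), and with no filter on low counts 2 with sgWDR77-1 (1065, against 1333). With only the libraries compared it was 2 with sgPRMT5-1, 2 with sgWDR77-1, 6 between the PRMT5 sgRNAs, and 0 between the WDR77 sgRNAs, while the calls over all genes went from 404 to 532, 1333 to 385, 1060 to 2689, and 339 to 17. With a log2 fold change of at least 0.5 also required it was 1 with sgWDR77-1 and 3 between the targeted genes. Calls over all genes were not counted under this minimum, so these 2 counts have no share over all genes beside them. The share of all genes at an unadjusted p under 0.05 was not counted either. By the longest transcript, 5 of the 10 places in the order of mean levels over all 15 libraries were as before. Leaving out 1 library at a time gave 1 to 3 with sgPRMT5-1, 4 to 7 with sgPRMT5-2, 0 to 4 with sgWDR77-1, 0 to 2 with sgWDR77-2, 3 to 5 between the PRMT5 sgRNAs, 0 to 2 between the WDR77 sgRNAs, 3 to 5 between the targeted genes, and 6 to 8 over the 5 conditions, and left 10 of 10 places of that order over all libraries as they were. Of 525 alternative values of the 21 called member results, 461 kept the call and 64 did not, with the fold minimum counted as a setting beside the other 24; of 1225 values of the 49 others, 28 gained it. Of the 525 values, 0 changed direction. For other named genes 169 of 2395 and 47 of 2315 values changed the call. With a replicate block, the counts were 1, 7, 4, 0, 3, 1, 5, and 7, and libraries with the same replicate number had correlations of -0.28 to 0.231 (median -0.00905, 30 pairs), 2 of them over 0.1, so no pairing was used. Pairs with different numbers had correlations of -0.206 to 0.383 (median 0.00172, 60 pairs), 7 of them over 0.1. The highest was between sgPRMT5-1 replicate 3 and sgWDR77-2 replicate 1. The alternative with DESeq2 was not run. The 3 libraries per condition, replicates called independent only in general terms, and RNA without protein limit what these values show.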
